A study of Mus musculus with 21 samples.

Results

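Levels of 38 genes of the ATF4 and unfolded protein response were described in 21 mouse mammary tumours. The genes were given as a list of symbols, not chosen by their values, and all 38 were found among the 24028 genes of the deposited count table and passed the filter on low counts. Every tumour came from mice of the genotype WAP-Cre/PIK3CA-H1047R, in which the promoter of the milk protein gene Wap drives the recombinase Cre in mammary epithelium and the H1047R form of PIK3CA, the catalytic subunit of PI3K alpha, is expressed. Tumours fell into 3 groups of 7: vehicle (DMSO), relapse (BYL719_Relapse) and stable (BYL719_Stable). The series' design text names the treated groups Responding and Stable. Whether Responding is the relapse group is not stated, and groups here follow the treatment labels. BYL719, or alpelisib, inhibits PI3K alpha, and controls and treated tumours shared the transgene. Age, dose, length of treatment and time of collection are not given in the labels used here. The question the design poses is how treated tumours of either outcome differed from vehicle tumours, and from each other.

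The transcription factor ATF4 is made when a kinase phosphorylates the translation factor eIF2, for example on lack of amino acids (GCN2) or on crowding of unfolded proteins in the endoplasmic reticulum (PERK, encoded by Eif2ak3). ATF4 then raises genes for amino acid synthesis and uptake, the factor CHOP (Ddit3) and feedback regulators. The unfolded protein response has 2 further sensors, IRE1 (Ern1), which splices the Xbp1 message, and ATF6, which is cut and enters the nucleus, and both raise chaperones and the machinery that removes misfolded proteins. Gene counts of this kind read neither protein levels nor the spliced share of Xbp1. ATF4 output also follows the growth kinase mTORC1, which acts downstream of PI3K.

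Library totals ran from 21043399 to 24873844 counts in vehicle, from 17722622 to 21431465 in relapse and from 13337848 to 24648463 in stable tumours. Vehicle 2, 6 and 7 stood apart: their summed level of 10 basal and myoepithelial markers was 17690, 23520 and 10820 CPM (counts scaled to TMM-normalized library size), against 1279 to 5733 in the other 4 vehicle tumours and at most 2310 in treated tumours, and their 6 neutrophil markers summed to 8.28, 10.4 and 19.7 CPM against 149.5 to 414 in the other vehicle tumours. Skeletal muscle markers, 10 in all, summed to 191 to 7802 CPM in relapse, 223 to 4611 in stable and 138 to 562.5 in vehicle tumours, and their part in the results was not tested. Markers of luminal epithelium, which a mammary tumour should carry, were present throughout, at 1496 to 4139 CPM. The tumours' titles carry a number that some tumours share (3 such numbers among the vehicle tumours, 7 among relapse and 4 among stable). The labels do not say whether it marks an animal, so p-values measure the spread between these tumours only. In whole tumours, fewer cells of a type and less RNA per cell cannot be told apart.

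A minority of members differed from vehicle tumours, and those that did were mostly lower. In relapse tumours 8 of 38 members fell and 0 rose at an adjusted p under 0.05 in edgeR's quasi-likelihood test, adjusted over all 15792 genes tested. Of all genes, 5.8% fell and 5.42% rose in that comparison. In stable tumours 11 members fell and 2 rose, beside 8.16% of all genes lower and 6.9% higher. DESeq2 called 9 members lower and 3 higher in relapse (Xbp1, Trib3 and Chac1), beside 1401 genes lower and 1195 higher of all 15792. In stable tumours it called 11 members lower and 1 higher, beside 1699 genes lower and 1559 higher. The median log2 fold change of the 38 was -0.15 in relapse and -0.23 in stable, and that of all genes was -0.02 and -0.005. The members' relapse median was -0.23 without relapse 2 and -0.09 with upper quartile scaling. Sesn2, Vldlr, Psph, Mthfd2, Hspa5, Dnajc3 and Herpud1 fell in both comparisons, which share the same 7 vehicle tumours and so are not independent. The relapse tumours all lay below the vehicle tumours for Atf4 and Psph, 2 of 38 members, as did 1.48% of all genes, and the stable tumours for Herpud1, 1 of 38, as did 1.3% of all genes.

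Most of these calls were lost when the vehicle tumours that stand apart were left out, a choice that leaves 4 vehicle tumours. Leaving out stable 1 as well, 5 members fell in relapse and 9 in stable tumours, beside 5.5% and 7.2% of all genes. Whether calls were lost through the levels of those vehicle tumours or through the smaller group was not tested. Without vehicle 2, 6 and 7, only Sesn2 remained called, and it fell in both comparisons. The members' medians were then -0.10 in relapse and -0.11 in stable, and those of all genes 0.02 and 0.05. In that fit 1.32% of all genes fell in relapse and 2.44% in stable. With counts summed over tumours of the same group that share a title number, 4 members fell in relapse (Atf4, Vldlr, Psph and Herpud1, beside 3.96% of all genes) and 3 in stable (Sesn2, Vldlr and Psph, beside 2.35%). Numbers shared between relapse and stable tumours stayed separate in those sums.

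**Figure D1:**
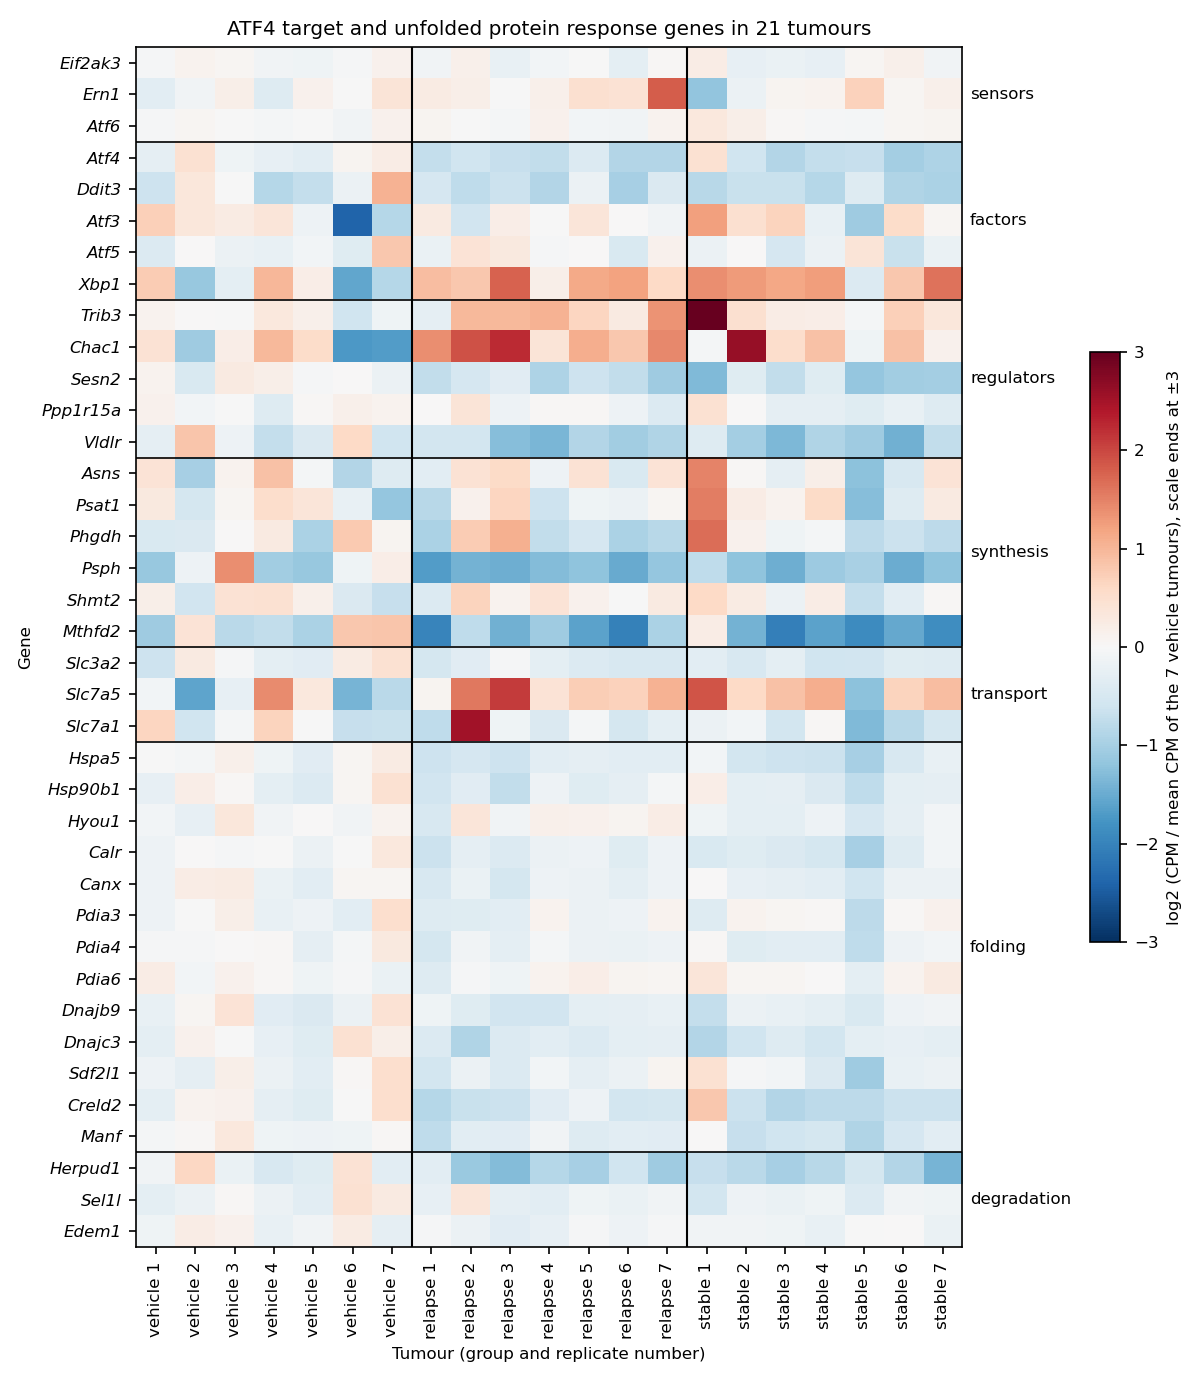
Each row is a gene and each column a tumour; colour gives log2 of the gene's CPM over the mean CPM of the 7 vehicle tumours, with the scale ending at 3 on either side, and black lines part the groups and the roles. The tumours vehicle 2, 6 and 7 differ from the other vehicle tumours in rows such as Xbp1, Mthfd2 and Slc7a5, stable 1 stands apart in the synthesis genes and Trib3, and the relapse and stable columns are paler or bluer than vehicle in Sesn2, Psph and Herpud1.

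**Figure D2:**
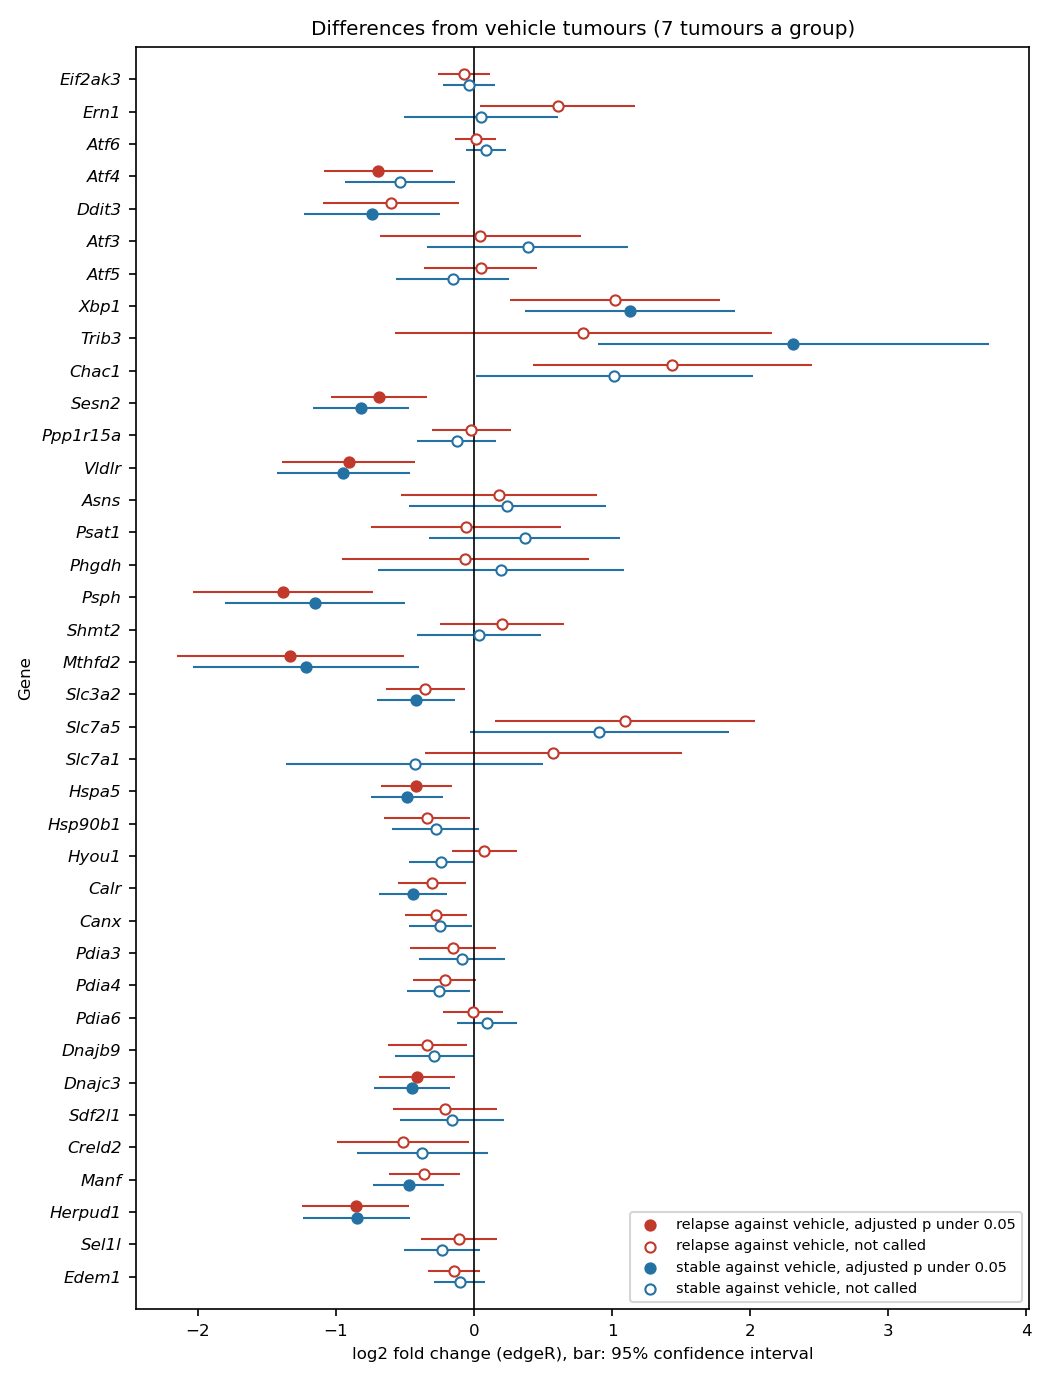
Points give the log2 fold change of each of the 38 genes in edgeR's fit, red for relapse against vehicle and blue for stable against vehicle, with 95% confidence intervals over 7 tumours a group; filled points have an adjusted p under 0.05. Filled points lie left of 0 except those of Xbp1 and Trib3 in stable tumours.

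The 3 sensors did not pass the test in either comparison, by edgeR or DESeq2, and in edgeR an unadjusted p under 0.05 was reached only by Ern1 in relapse. Eif2ak3, the PERK kinase, had a median of 68.9 CPM in vehicle (65.0 to 77.4), of 66.4 in relapse (57.4 to 78.6) and of 66.1 in stable tumours (59.6 to 82.3), and Atf6 was as even, at 82.4 to 97.2, 82.4 to 96.6 and 84.2 to 110 CPM. The groups overlapped throughout for both. Ern1, the IRE1 kinase and nuclease, lay between 36.9 and 63.1 CPM in vehicle, and in relapse between 47.8 and 170.7, where relapse 7 alone exceeded 67.2. Its difference in relapse was 0.61 ± 0.27 on the log2 scale (SE; adjusted p = 0.15 in edgeR's test). Stable 1 had the lowest Ern1 of all 21 tumours, 21.4 CPM.

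Among the transcription factors Atf4 itself was lower. Its level in vehicle was 294.5 ± 62.6 CPM (SD, n = 7), with a lowest value of 237, a median of 269 and a highest of 405. Relapse tumours had 160.7, 179.6 and 221.7 CPM as lowest, median and highest values, so no relapse tumour reached the lowest vehicle tumour. Atf4, on chromosome 15 (bases 80255184 to 80257545, GRCm38.p6), fell by 0.69 ± 0.19 (log2 fold change and SE; edgeR adjusted p = 0.024). In stable tumours 6 values lay between 145.5 and 193.3 CPM and stable 1 was at 403.8, next to the highest vehicle tumour. The difference of -0.53 ± 0.19 was not called (edgeR adjusted p = 0.062), and without stable 1 it was -0.79 (edgeR adjusted p = 0.0006). Vehicle 2, 6 and 7 had the 3 highest vehicle values (405, 310 and 346 CPM, the rest 237 to 269); without them Atf4 was at -0.45 in relapse (edgeR adjusted p = 0.25), although all 7 relapse and 6 of 7 stable tumours still lay below the remaining vehicle tumours. The relapse call was also lost on leaving out vehicle 2, 6 or 7 or relapse 6 singly (edgeR adjusted p = 0.0503 to 0.0784). Leaving out vehicle 2, 6 and 7 together with stable 1, Atf4 fell in both comparisons, by 0.46 (edgeR adjusted p = 0.011) and 0.55 (edgeR adjusted p = 0.0029).

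Ddit3 encodes CHOP, the factor tied to cell death under lasting stress. It ranged from 10.7 to 39.6 CPM in vehicle with a median of 17.1, and from 10.1 to 14.8 in stable tumours with a median of 10.95. The highest vehicle values were those of vehicle 7 and 2, and the groups overlapped at the low end. Ddit3 fell by 0.74 ± 0.24 in stable tumours (edgeR adjusted p = 0.04) and stood at -0.60 ± 0.24 in relapse (edgeR adjusted p = 0.1). On leaving out vehicle 2, 6 and 7 the values were -0.22 and -0.08, and leaving out vehicle 2, 3, 6 or 7 or stable 2, 3, 4, 6 or 7 singly ended the stable call. Leaving out vehicle 4, Ddit3 fell in relapse as well, by 0.71 (edgeR adjusted p = 0.046). Atf3 and Atf5, further stress-induced factors of the same family, were not called in either comparison, and both spread widely within vehicle: Atf3 was at 6.58 CPM in vehicle 6 and 56.6 in vehicle 1, and Atf5 at 21.9 in vehicle 7 and at most 12.6 in the rest.

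Xbp1, the message that IRE1 splices and a driver of secretory cell growth, went the other way. Vehicle tumours had a lowest value of 123 CPM, a median of 295 and a highest of 729, relapse tumours 414, 694.5 and 1238, and stable tumours 275, 868 and 1133. The tumours vehicle 2, 6 and 7 were the 3 lowest of all 21 tumours (164, 123 and 203 CPM), and the other 4 vehicle tumours overlapped both treated groups. Xbp1 rose in stable tumours by 1.13 ± 0.37 (log2 fold change and SE; edgeR adjusted p = 0.043) and was at 1.02 ± 0.37 in relapse (edgeR adjusted p = 0.074). When vehicle 2, 6 and 7 were left out the differences were 0.64 (edgeR adjusted p = 0.27) and 0.53 (edgeR adjusted p = 0.39). The stable call was also lost on leaving out singly vehicle 2, 3, 6 or 7, relapse 1, 5 or 6, or any stable tumour except stable 5, which was the lowest of its group at 275 CPM. In relapse the threshold was passed on leaving out vehicle 1 (1.18, edgeR adjusted p = 0.046) or vehicle 4 (1.28, edgeR adjusted p = 0.025). Plasma cells carry much Xbp1, and the groups overlapped in the sum of 6 of their markers. It lay between 32.4 and 107 CPM in vehicle, between 52.1 and 96.6 in relapse and between 49.4 and 89.7 in stable tumours. In vehicle 2, 6 and 7 the sum was 40.6, 32.4 and 53.15 CPM, below the 59.1 to 107 of the other vehicle tumours. The part of plasma cells in the Xbp1 differences was not tested.

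**Figure D3:**
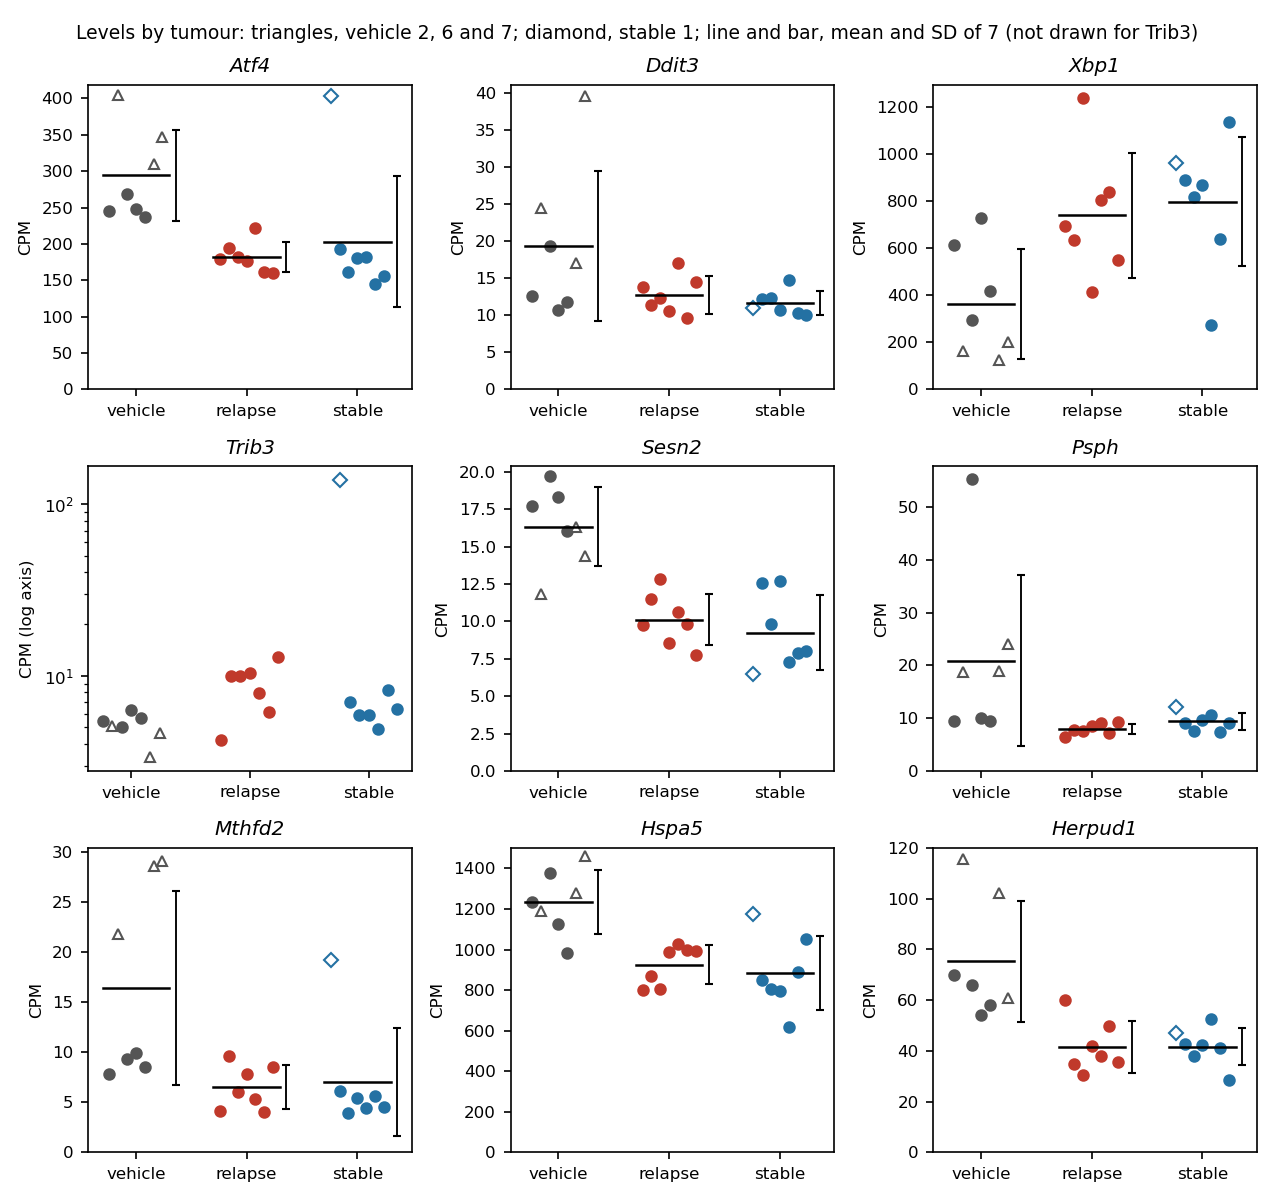
CPM of 9 genes in each tumour, by group; triangles mark vehicle 2, 6 and 7, the diamond marks stable 1, and the line and bar give mean and SD of 7 tumours except for Trib3, which has a log axis. The relapse and stable points of Sesn2 lie below the filled vehicle points, Atf4 shows stable 1 level with the highest vehicle tumour, and the triangles lie at the top of Mthfd2 and at the bottom of Xbp1.

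Regulators that ATF4 induces moved in different directions. Sesn2, which encodes Sestrin 2, a leucine sensor and brake on mTORC1, fell in both comparisons. It stood at 16.3 ± 2.63 CPM in vehicle (SD, n = 7), 10.1 ± 1.72 in relapse and 9.26 ± 2.53 in stable tumours. Lowest, median and highest values were 11.8, 16.3 and 19.7 CPM in vehicle, 7.78, 9.80 and 12.8 in relapse, and 6.47, 8.04 and 12.7 in stable. Vehicle 2, at 11.8 CPM, was the lone vehicle tumour within the treated range. All 14 treated tumours lay below vehicle 1, 3, 4 and 5, and Sesn2 was the 1 member of 38 of which this held, beside 1.55% of all genes. Sesn2, on chromosome 4 (bases 132492804 to 132510456), fell by 0.69 ± 0.17 in relapse (edgeR adjusted p = 0.013) and by 0.82 ± 0.17 in stable tumours (edgeR adjusted p = 0.0043). Both calls held on leaving out each of the 21 tumours in turn, and without vehicle 2, 6 and 7 the falls were 0.82 (edgeR adjusted p = 0.027) and 0.94 (edgeR adjusted p = 0.0076). With counts summed per title number, the relapse value was -0.69 with an edgeR adjusted p of 0.054.

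Vldlr, a lipoprotein receptor that ATF4 raises under stress of the endoplasmic reticulum, had 99.7, 134.6 and 289 CPM as lowest, median and highest values in vehicle, 63.7, 87.4 and 111 in relapse and 60.4, 81.0 and 126 in stable tumours. Vehicle 2 and 6 were the highest, at 289 and 248 CPM, and the groups overlapped. Vldlr fell by 0.91 ± 0.23 in relapse (edgeR adjusted p = 0.017) and by 0.95 ± 0.23 in stable tumours (edgeR adjusted p = 0.012). Without vehicle 2, 6 and 7 it was at -0.51 (edgeR adjusted p = 0.13) and -0.54 (edgeR adjusted p = 0.1).

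Trib3 and Chac1 are usually among the most responsive ATF4 targets: TRIB3 is a pseudokinase that feeds back on ATF4 and on the kinase AKT, and CHAC1 degrades glutathione. Both were low. Trib3 ranged from 3.36 to 6.36 CPM in vehicle with a median of 5.12, and from 4.23 to 12.85 in relapse with a median of 9.97, where relapse 1 and 6 lay within the vehicle range and the other 5 above it. In stable tumours 6 values lay between 4.92 and 8.30 CPM and stable 1 was at 138.5. Trib3 passed the test in stable tumours at 2.31 ± 0.68 (edgeR adjusted p = 0.028), a value that rests on stable 1: without it the difference was 0.33 (edgeR adjusted p = 0.28). The call was also lost on leaving out vehicle 2, 6 or 7 singly (edgeR adjusted p = 0.051 to 0.057). In relapse the difference was 0.79 ± 0.66 (edgeR adjusted p = 0.47). With stable 1 left out of the shared spread, the same 0.79 passed (edgeR adjusted p = 0.015). Chac1 had 0.467, 1.75 and 3.00 CPM as lowest, median and highest values in vehicle and 1.99, 4.04 and 7.25 in relapse, with 5 of 7 relapse tumours above every vehicle tumour. Its difference of 1.44 ± 0.49 was not called (edgeR adjusted p = 0.06), and it was called at 1.43 on leaving out stable 1 (edgeR adjusted p = 0.047) or stable 2 (edgeR adjusted p = 0.03) and at 1.69 on leaving out vehicle 4 (edgeR adjusted p = 0.034). Vehicle 2, 6 and 7 were the 3 lowest of all tumours for Chac1, and without them the value was 0.89 (edgeR adjusted p = 0.31). Ppp1r15a encodes GADD34, which restores translation by bringing a phosphatase to eIF2. It lay at -0.02 ± 0.14 in relapse and -0.13 ± 0.14 in stable tumours and was not called.

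The 6 genes of serine, asparagine and one-carbon synthesis did not move as a block: 2 fell in each comparison, 0 rose, and the 4 others were not called. Of all genes, 5.8% fell in relapse and 8.16% in stable tumours. Psph, the last enzyme of serine synthesis, had 9.44, 18.9 and 55.3 CPM as lowest, median and highest values in vehicle, 6.49, 7.84 and 9.30 in relapse and 7.39, 9.09 and 12.2 in stable tumours. The highest relapse tumour lay just under the lowest vehicle tumour, while 4 stable tumours lay below that value and 3 above it. Vehicle values were split, with 3 tumours from 9.44 to 10.1 CPM and 4 from 18.9 to 55.3, the last in vehicle 3. Psph, on chromosome 5 (bases 129765558 to 129787443), fell by 1.39 ± 0.31 in relapse (edgeR adjusted p = 0.0089) and by 1.15 ± 0.31 in stable tumours (edgeR adjusted p = 0.02). On leaving out vehicle 2, 6 and 7 the values were -1.39 and -1.15, with edgeR adjusted p of 0.0504 and 0.0823. The 4 vehicle tumours left had 21.1 ± 22.8 CPM (SD), a mean set by vehicle 3 at 55.3, while the other 3 had 9.44 to 10.1. Both calls held on leaving out each tumour in turn, where the smallest falls were 0.92 and 0.69.

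Mthfd2, the mitochondrial enzyme of one-carbon metabolism, fell by 1.33 ± 0.40 in relapse (edgeR adjusted p = 0.035) and by 1.22 ± 0.39 in stable tumours (edgeR adjusted p = 0.042). The tumours vehicle 2, 6 and 7 had 21.8, 28.6 and 29.1 CPM and the other vehicle tumours 7.86 to 9.88. Relapse tumours ranged from 4.05 to 9.67 CPM with a median of 6.06, and stable tumours from 3.95 to 6.13 apart from stable 1, at 19.2. When vehicle 2, 6 and 7 were left out the values were -0.44 (edgeR adjusted p = 0.55) and -0.31 (edgeR adjusted p = 0.67), and leaving out stable 1 as well it fell in stable tumours by 0.82 (edgeR adjusted p = 0.026). The relapse call ended on leaving out vehicle 2, 6 or 7 or relapse 1, 3, 5 or 6 singly, and the stable call on leaving out vehicle 2, 6 or 7, relapse 3 or 7, or any stable tumour except stable 1.

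Asns (asparagine synthetase), Phgdh and Psat1 (the enzymes before Psph in serine synthesis) and Shmt2 (which passes serine's carbon to folate in mitochondria) had log2 fold changes from -0.06 to 0.20 in relapse and from 0.03 to 0.37 in stable tumours, with edgeR adjusted p of at least 0.47. Phgdh was low throughout, from 1.504 to 9.342 CPM. Asns, Psat1 and Shmt2 were lower in vehicle 2, 6 and 7 than in every other vehicle tumour. Mthfd2 and Atf4 were higher in those 3, so these members parted within the vehicle group itself. Such a parting was common: 21.1% of all genes lay wholly above and 21.1% wholly below in those 3.

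The amino acid transporters parted in the same way. Slc3a2, the shared heavy chain (CD98), fell by 0.42 ± 0.14 in stable tumours (edgeR adjusted p = 0.042) and was at -0.35 ± 0.14 in relapse (edgeR adjusted p = 0.1). Medians were 235 CPM in vehicle (156 to 328), 182 in relapse (167 to 236.5) and 184 in stable tumours (159 to 197), and the vehicle tumours above 236 CPM were vehicle 2, 6 and 7. Without those 3 the stable value was -0.10 (edgeR adjusted p = 0.63), and the call also ended on leaving out vehicle 2, 3, 6 or 7, relapse 6 or 7, or any stable tumour except stable 1 singly. Without vehicle 1 it fell in relapse by 0.46 (edgeR adjusted p = 0.025). Slc7a5, its light chain partner LAT1 for leucine and other large amino acids, was higher in treated tumours without passing the test: 20.9, 53.1 and 167 CPM as lowest, median and highest values in vehicle, 66.3, 104 and 267 in relapse and 26.5, 115 and 233 in stable. The differences were 1.10 ± 0.45 (edgeR adjusted p = 0.12) and 0.91 ± 0.45 (edgeR adjusted p = 0.18). Vehicle 4 held the highest vehicle value, at 167 CPM; without it Slc7a5 rose by 1.57 in relapse (edgeR adjusted p = 0.02) and by 1.38 in stable tumours (edgeR adjusted p = 0.03). Vehicle 2, 6 and 7 were the lowest 3 vehicle tumours, and without them the values were 0.59 and 0.41, neither called. Slc7a1, a carrier of arginine and lysine, was at 405 CPM in relapse 2 and at most 111.5 in every other tumour, and was not called.

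The 13 chaperones and oxidoreductases of the endoplasmic reticulum had a log2 fold change below 0 in 12 of 13 in each comparison, with medians of -0.30 and -0.28. The medians of all genes were -0.02 and -0.005. Of the 13, 2 fell in relapse, 4 in stable and 0 rose in either, beside 5.8% and 8.16% of all genes lower. Without vehicle 2, 6 and 7 the medians of the 13 were -0.17 in both, and those of all genes 0.02 and 0.05. Per kilobase of gene length they included the most abundant members, Hsp90b1 at 550 CPM per kilobase in vehicle, Hspa5 at 473 and Calr at 453, against 170 for Atf4, 6.15 for Sesn2 and 0.977 for Chac1.

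Hspa5 encodes BiP, the main chaperone of the compartment, which holds the 3 sensors inactive when folding keeps up. Lowest, median and highest values were 981.5, 1236 and 1461 CPM in vehicle, 802, 990 and 1028 in relapse and 619, 849 and 1175 in stable tumours. Vehicle 5 was the lowest vehicle tumour, 5 of 7 stable tumours and 3 of 7 relapse tumours lay below it, and the groups overlapped. Hspa5 fell by 0.42 ± 0.12 in relapse (edgeR adjusted p = 0.035) and by 0.48 ± 0.12 in stable tumours (edgeR adjusted p = 0.016). Without vehicle 2, 6 and 7 the values stayed near these, -0.34 and -0.40, and missed the threshold (edgeR adjusted p = 0.2 and 0.12). The relapse call ended on leaving out vehicle 2, 3, 6 or 7 or relapse 1, 2, 3 or 6 singly, and the stable call on leaving out vehicle 7.

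Dnajc3 encodes p58IPK, a cochaperone of BiP that also restrains PERK. Its medians were 250 CPM in vehicle (195 to 344), 190.5 in relapse (135 to 210) and 192 in stable tumours (137 to 212). Dnajc3 fell by 0.41 ± 0.13 (edgeR adjusted p = 0.049) and 0.45 ± 0.13 (edgeR adjusted p = 0.03). The tumours vehicle 2, 6 and 7 exceeded the other vehicle tumours, and without them the values were -0.17 and -0.21, neither called. Single tumours ended the relapse call in 14 of 21 cases (vehicle 2, 3, 6 or 7, relapse 1 to 6, stable 2, 3, 4 or 6) and the stable call in 5 (vehicle 2, 6 or 7, stable 2 or 4).

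Calr, a lectin chaperone of glycoproteins, and Manf, a secreted factor kept with BiP, passed the test in stable tumours alone, and the difference between relapse and stable was not called for either. Calr ranged from 780 to 1103 CPM in vehicle and from 444 to 833 in stable tumours, overlapping in stable 7, and fell by 0.44 ± 0.12 (edgeR adjusted p = 0.018). Manf ranged from 83.3 to 116 CPM in vehicle and from 50.1 to 94.5 in stable tumours, with stable 1 alone inside the vehicle range, and fell by 0.47 ± 0.12 (edgeR adjusted p = 0.016). In relapse they stood at -0.30 (edgeR adjusted p = 0.1) and -0.36 (edgeR adjusted p = 0.061). On leaving out vehicle 2, 6 and 7 the stable values were -0.34 (edgeR adjusted p = 0.14) and -0.47 (edgeR adjusted p = 0.082). Manf also fell in relapse on leaving out stable 1 (edgeR adjusted p = 0.021), stable 5 (0.044) or relapse 4 (0.0499).

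The other 9 of this group were not called: Hsp90b1 (GRP94), Canx (calnexin), the disulphide isomerases Pdia3, Pdia4 and Pdia6, the BiP helpers Hyou1, Dnajb9 and Sdf2l1, and Creld2, a stress-induced secreted protein. Their log2 fold changes ran from -0.51 to 0.07 in relapse and from -0.37 to 0.09 in stable tumours. Creld2 had 83.6 CPM in stable 1 and 25.8 to 30.5 in the other stable tumours, all of which lay below the lowest vehicle value of 36.7. Without stable 1, Creld2 fell in stable tumours by 0.72 (edgeR adjusted p = 0.002) and in relapse by 0.51 (edgeR adjusted p = 0.011), and Pdia4 fell in stable tumours by 0.31 (edgeR adjusted p = 0.044).

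Herpud1, which helps the Sel1l ubiquitin ligase complex to clear misfolded proteins, showed the clearest fall of the degradation genes. Vehicle tumours had lowest, median and highest values of 54.1, 65.9 and 116 CPM, relapse tumours 30.4, 37.9 and 60.1, and stable tumours 28.6, 42.2 and 52.6. All stable tumours lay below all vehicle tumours, and of the relapse tumours only relapse 1 reached the vehicle range. Herpud1 fell by 0.86 ± 0.19 in relapse (edgeR adjusted p = 0.0073) and by 0.85 ± 0.19 in stable tumours (edgeR adjusted p = 0.0062), and both calls held on leaving out each tumour in turn. Vehicle 2 and 6 were the highest, at 116 and 102 CPM; without vehicle 2, 6 and 7 the values were -0.57 (edgeR adjusted p = 0.071) and -0.56 (edgeR adjusted p = 0.067). Sel1l and the mannosidase-like Edem1 were not called, at -0.11 and -0.15 in relapse and -0.23 and -0.10 in stable tumours.

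The list joins genes read by different factors. Promoters are shown only for the called members with a match to an element in the 250 bases before the start. The endoplasmic reticulum stress element (ERSE), bound by ATF6 with NFY, is CCAAT followed after 9 bases by CCACG; ERSE-II is ATTGG followed after 1 base by CCACG; the core of the element bound by ATF4 (CARE) is TGATGNAA. Each was searched on both strands in RefSeq promoters of GRCm38.p6, from 250 bases before to 50 after the start. The 250 bases before the start are printed 5′ to 3′ on the gene's strand, with the fixed letters of a match in capitals.
Herpud1 (chr8:94386179-94386428, plus strand): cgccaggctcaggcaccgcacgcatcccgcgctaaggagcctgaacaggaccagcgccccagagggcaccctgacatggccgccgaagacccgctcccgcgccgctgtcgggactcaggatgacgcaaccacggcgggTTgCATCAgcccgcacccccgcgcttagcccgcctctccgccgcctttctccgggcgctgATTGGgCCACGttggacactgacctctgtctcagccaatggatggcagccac
Hspa5 (chr2:34771840-34772089, plus strand): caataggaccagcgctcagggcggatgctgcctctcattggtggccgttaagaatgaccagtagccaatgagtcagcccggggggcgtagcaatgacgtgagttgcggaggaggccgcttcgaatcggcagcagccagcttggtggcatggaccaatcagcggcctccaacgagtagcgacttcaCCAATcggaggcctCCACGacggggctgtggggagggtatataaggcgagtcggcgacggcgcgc
Dnajc3 (chr14:118937682-118937931, plus strand): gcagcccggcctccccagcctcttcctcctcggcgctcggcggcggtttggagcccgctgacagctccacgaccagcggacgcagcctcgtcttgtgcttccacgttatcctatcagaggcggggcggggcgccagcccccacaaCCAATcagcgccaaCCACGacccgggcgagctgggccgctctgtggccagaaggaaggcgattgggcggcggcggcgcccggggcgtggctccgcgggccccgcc
Calr (chr8:84846932-84847181, minus strand): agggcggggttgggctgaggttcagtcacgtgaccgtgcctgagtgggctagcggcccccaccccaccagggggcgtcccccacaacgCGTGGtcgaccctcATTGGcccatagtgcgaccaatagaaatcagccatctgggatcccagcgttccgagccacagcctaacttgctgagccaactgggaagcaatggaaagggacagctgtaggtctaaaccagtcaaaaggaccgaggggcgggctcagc
Vldlr (chr19:27216770-27217019, plus strand): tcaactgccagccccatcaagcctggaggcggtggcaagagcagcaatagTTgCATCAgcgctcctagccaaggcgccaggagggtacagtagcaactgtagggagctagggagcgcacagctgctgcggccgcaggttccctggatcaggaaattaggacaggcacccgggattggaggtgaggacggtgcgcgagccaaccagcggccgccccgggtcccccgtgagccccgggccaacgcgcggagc

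Herpud1 holds an ERSE-II on its own strand and, upstream of it, a CARE on the opposite strand; Hspa5 and Dnajc3 hold an ERSE on their own strand and Calr holds one on the opposite strand; Vldlr, shown for the 1 of its 2 listed starts with a match, holds a CARE on the opposite strand. Of the 38 members 34 had a promoter sequence. Among the called members, Atf4, Ddit3, Xbp1, Sesn2, Psph, Mthfd2 and Slc3a2 had a promoter without any match. Trib3 had a CARE only after the start, and Manf had no promoter sequence. An ERSE stood in 7 of 34, all of them chaperones or oxidoreductases (Calr, Canx, Creld2, Dnajc3, Hsp90b1, Hspa5 and Pdia6), or 20.6%, against 0.137% of the 27025 genes with a promoter. ERSE-II stood in Herpud1 alone (0.0444% of all genes). The CARE core stood in 6 of 34, or 17.6% (Asns, Atf3, Chac1, Herpud1, Trib3 and Vldlr), against 4.51% of all genes. The unfolded protein response element TGACGTGG, bound by XBP1 and ATF6, was in 0 of 34 windows and in 0.714% of all genes. These letters are a description of the windows and not a measure of binding. The list was made of genes of the responses that these elements serve, so the shares test nothing about it. Of the 7 members with an ERSE, 2 fell in relapse (Hspa5 and Dnajc3) and 3 in stable tumours (those and Calr), and the other 4 were not called. The shares of all genes that fell were 5.8% and 8.16%. The 6 with a CARE included both members that fell (Vldlr, Herpud1) and members with a mean above that of vehicle in both treated groups, such as Trib3 and Chac1.

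The split within the vehicle group touched 13 of the 38 members. Vehicle 2, 6 and 7 lay above all 4 other vehicle tumours for Atf4, Mthfd2, Slc3a2, Hsp90b1, Calr and Dnajc3 (6 of 38, beside 21.1% of all genes) and below them for Xbp1, Chac1, Asns, Psat1, Shmt2, Slc7a5 and Slc7a1 (7 of 38, beside 21.1% of all genes). Atf4 was at 250 ± 13.4 CPM in the other vehicle tumours (SD, n = 4) and Mthfd2 at 8.91 ± 0.88. The part of the basal, myoepithelial and neutrophil RNA of these tumours in the members' differences was not tested. Leaving out stable 1 as well as vehicle 2, 6 and 7, a choice made after seeing the data, 5 members fell in relapse (Atf4, Sesn2, Vldlr, Psph and Herpud1; 5.5% of all genes) and 9 in stable tumours (those 5 with Mthfd2, Hspa5, Creld2 and Manf; 7.2% of all genes).

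**Figure D4:**
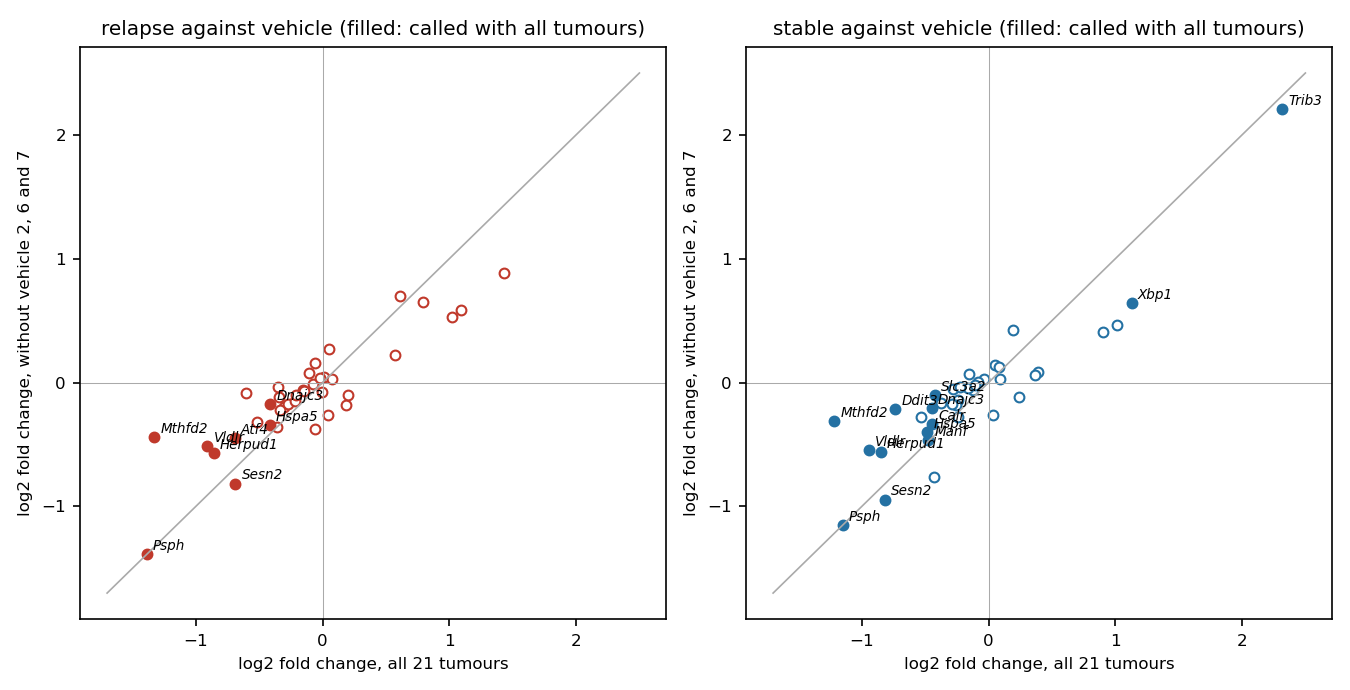
Log2 fold change of the 38 genes with all 21 tumours (horizontal) and without vehicle 2, 6 and 7 (vertical), for relapse (left) and stable (right); filled, named points were called with all tumours and the grey diagonal marks equal values. Psph, Sesn2 and Trib3 lie near the diagonal, while Mthfd2 moves from -1.33 to -0.44 in relapse and from -1.22 to -0.31 in stable tumours. Among the vehicle tumours left, vehicle 3 had 55.3 CPM of Psph and the rest at most 10.1.

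Stable 1 had the highest level of the 7 stable tumours in 22 of 38 members, as in 32.2% of all genes, and over 2 times the median of the other 6 in 8 members, as in 12% of all genes. The 8 were Atf4 (403.8 CPM, 2.36 times that median), Trib3 (22.5 times), Phgdh (4.13 times), Mthfd2 (3.85 times), Asns (3.01 times), Creld2 (2.88 times), Psat1 (2.60 times) and Slc7a5 (2.17 times). All 6 synthesis genes were highest in stable 1. Other members were not: Ddit3 was at 10.9 CPM, within the 10.1 to 14.8 of the other stable tumours, Herpud1 at 46.9 within 28.6 to 52.6, Chac1 at 1.48 within 1.40 to 9.41, and Sesn2 (6.47), Dnajc3 (137) and Dnajb9 (42.1) were the lowest of the group. Stable 6, which shares its title number, had 8.30 CPM of Trib3 and 145.5 of Atf4. Genes outside the list were also high in stable 1, whether or not ATF4 is known to act on them. It held the highest stable level in 17 of 20 tRNA synthetases, which load amino acids (7 over 2 times the median of the others), in 21 of 23 translocon and signal sequence genes (5), in 12 of 16 genes around eIF2 (3), in 8 of 10 mitochondrial chaperones and proteases (3) and in 11 of 25 further ATF4 and CHOP targets (6). It was also highest in 14 of 27 further folding genes (5), 6 of 14 heat shock genes (2), 6 of 19 degradation genes (1) and 3 of 12 genes of ATF6 processing and the CREB3 family (0). In the last 2 lists these shares did not exceed the 32.2% and 12% of all genes. Sec61b, a subunit of the translocon, stood at 29.6 CPM against 4.56 to 8.93 in the other stable tumours. Tars, for threonine, stood at 299 CPM against 54.88 to 95.04, and Farsb, for phenylalanine, at 128 against 28.3 to 46.2. Mthfd1l, a further one-carbon enzyme, was at 80.4 against 18.7 to 26.5, and Slc38a2, a carrier of neutral amino acids, at 854 against 236 to 422. These genes were picked after their values in this tumour were seen. Stable 1 also had the lowest basal and myoepithelial marker sum of all tumours (247 CPM), the lowest milk and alveolar sum (878) and the highest luminal sum (4139), and their part in its levels was not tested.

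**Figure D5:**
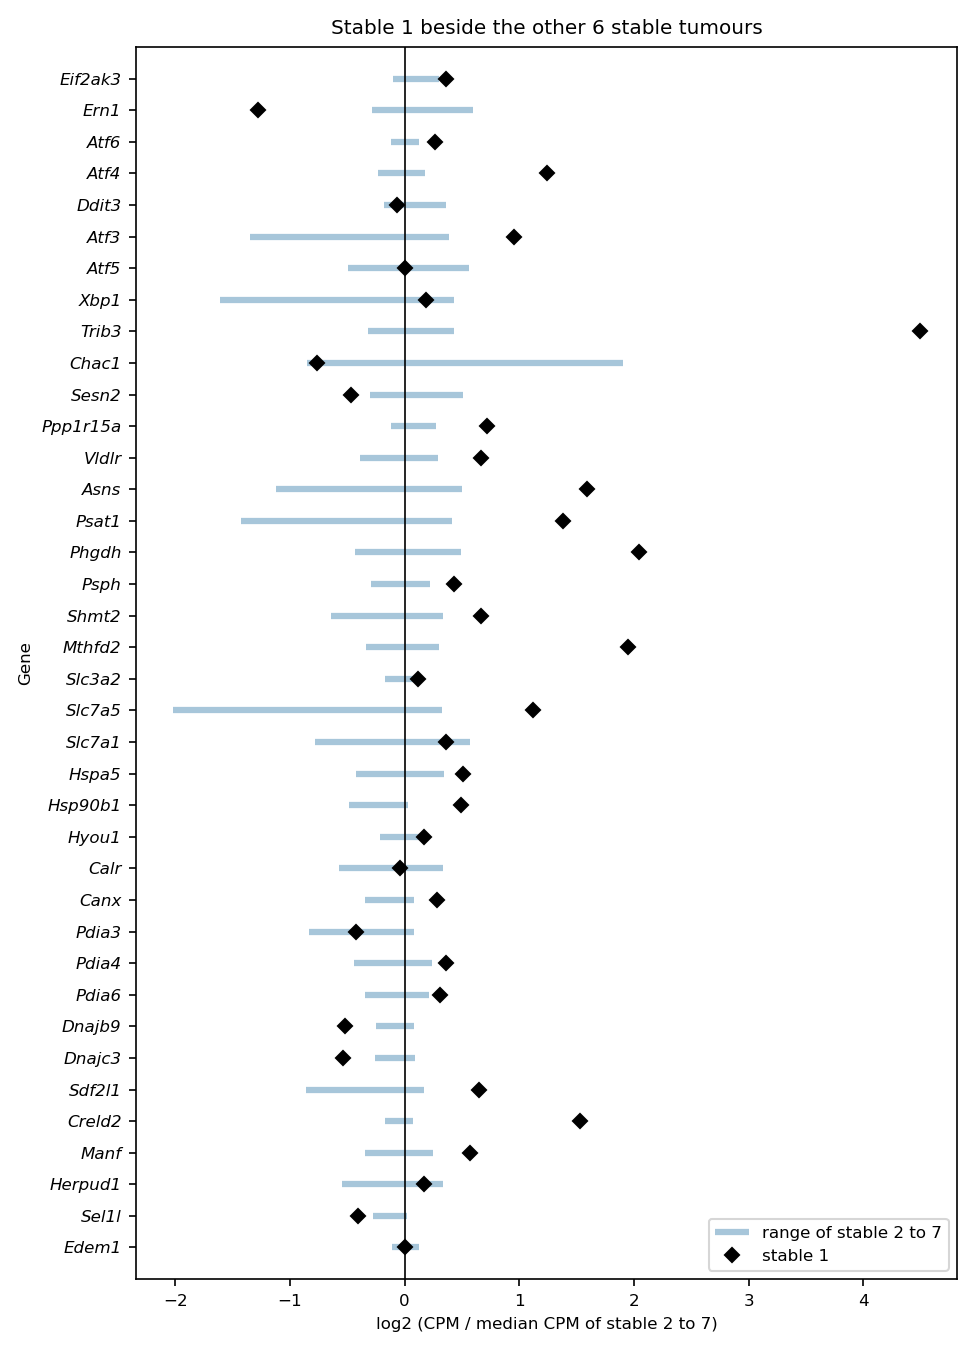
Diamonds give log2 of the CPM in stable 1 over the median CPM of stable 2 to 7, for each of the 38 genes, and blue bars the range of those 6 tumours on the same scale. Trib3 stands 22.5 times above the median, and the synthesis genes, Atf4, Slc7a5 and Creld2 lie right of their bars, while Sesn2, Dnajc3, Dnajb9, Sel1l and Ern1 lie left of them.

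Stable 5 and vehicle 7 were the other tumours that were often at an end of the range. Stable 5 was the lowest stable tumour in 21 members (25.5% of all genes) and the lowest of all 21 tumours in 13 (10.2% of all genes). Among them were Hspa5 at 619 CPM, Hsp90b1 at 888, Calr at 444 and Asns at 9.33. Its skeletal muscle markers summed to 4611 CPM and its fibroblast markers to 8361, the highest of the stable tumours in both, and their part was not tested. Relapse 1, which had the highest muscle sum, 7802 CPM, was the lowest relapse tumour in 17 members, and in 12.7% of all genes. Vehicle 7 was the highest of all tumours in 11 members (9.49% of all genes), among them Ddit3, Hspa5, Hsp90b1, Calr and Pdia3.

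Relapse and stable tumours were not separated for any member: 0 of 38 were called, as 0% of all 15792 genes were called higher and 0% lower by edgeR. At an unadjusted p under 0.05 there were 3 members and 751 genes, and DESeq2 called 6 genes and 0 members. The 3 members were Hyou1, a large chaperone that exchanges the nucleotide of BiP, at 152.5 ± 26.4 CPM in relapse and 123 ± 12.0 in stable tumours (SD, n = 7; log2 difference 0.31 ± 0.11), Trib3 at -1.52 ± 0.66, where stable 1 sets the stable mean, and Slc7a1 at 1.00 ± 0.45, where relapse 2 sets the relapse mean. The edgeR adjusted p of each was 0.99. For Atf4 the difference was -0.16 ± 0.19, for Hspa5 0.07 ± 0.12 and for Herpud1 -0.01 ± 0.18.

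The share of genes called differed among the lists around these pathways. Of 16 genes of the eIF2 kinases, eIF2, its exchange factor eIF2B and phosphatase, 0 were called in either comparison with vehicle by edgeR or by DESeq2, and 0 had an unadjusted p under 0.05 in edgeR. The same counts of 0 held for 10 mitochondrial chaperones and proteases. Of 20 cytosolic tRNA synthetases edgeR called 0, with 1 in relapse and 3 in stable tumours at an unadjusted p under 0.05, and DESeq2 called 1 and 3 lower. Of 23 further ATF4 and CHOP targets tested, out of 25 listed, 2 rose and 4 fell in relapse and 4 rose and 5 fell in stable tumours, that is 26.1% and 39.1% of the 23 called, beside 5.42% of all genes higher and 5.8% lower in relapse and 6.9% and 8.16% in stable tumours. Stc2, a secreted glycoprotein, fell by 2.72 ± 0.53 in relapse (edgeR adjusted p = 0.0046) and by 2.56 ± 0.52 in stable tumours (edgeR adjusted p = 0.0043), with 16.0 to 185 CPM in vehicle tumours, against 10.2 to 15.3 in relapse and 9.25 to 25.7 in stable ones. Jdp2, a repressor of the AP-1 family, also fell (log2 fold changes of -1.89 ± 0.39 and -1.88 ± 0.39). When vehicle 2, 6 and 7 were left out neither was called (Stc2 at -0.64 and -0.48, Jdp2 at -0.78 and -0.76). Slc7a3, a carrier of arginine, rose in relapse from 0.416 ± 0.19 to 1.01 ± 0.37 CPM (SD, n = 7; edgeR adjusted p = 0.013), and Bbc3, which encodes the death factor PUMA, rose in stable tumours from 4.39 ± 0.88 to 6.82 ± 1.69 CPM (edgeR adjusted p = 0.017). The other called genes were named after their values were seen. In relapse they were Ero1l and Aldh1l2, lower, and Bbc3, higher. In stable tumours they were Ero1l, Aldh18a1 and Slc6a9, lower, and Shmt1, Cebpg and Slc38a2, higher. Shmt1 and Slc38a2 were at 82.1 and 854 CPM in stable 1. The other stable tumours had 23.9 to 37.2 and 236 to 422. The 1 gene of the 23 still called without vehicle 2, 6 and 7 was Ero1l, the oxidase that recharges disulphide isomerases, which fell by 1.42 in relapse (edgeR adjusted p = 0.0055) and by 1.43 in stable tumours (edgeR adjusted p = 0.0016). With counts summed per title number, Stc2, Jdp2 and Ero1l were still called in relapse and Stc2 and Jdp2 in stable tumours, and no other gene of the 23: Slc7a3 was then at an edgeR adjusted p of 0.07 in relapse, and Bbc3 at 0.12 and Ero1l at 0.069 in stable tumours.

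Of 19 further genes of degradation from the endoplasmic reticulum, 5 fell in relapse (26.3%, beside 5.8% of all genes), 6 fell in stable tumours (31.6%, beside 8.16%) and 0 rose. Selenos, Ufd1 and Faf2, which tie the segregase p97 to the membrane or its cargo, fell in relapse (log2 fold changes of -0.56, -0.32 and -0.24), as did Ubxn4, named after its values were seen; 0 of 19 were called without vehicle 2, 6 and 7, and 2 of 19 in each comparison, Selenos among them, with counts summed per title number. In the summed fit 3.96% of all genes fell in relapse and 2.35% in stable tumours. Of 27 further folding genes, Dnajc1 fell in relapse (-0.66 ± 0.21, edgeR adjusted p = 0.046). Txndc12, a small oxidoreductase, rose in stable tumours (0.64 ± 0.19, edgeR adjusted p = 0.032). It stood at 112.8 CPM in stable 1 and at 33.5 to 57.8 in the other stable tumours. The list's share called was 3.7% in each comparison, beside 5.8% of all genes lower in relapse and 6.9% higher in stable tumours. Of 23 translocon and signal sequence genes, Spcs1 of the signal peptidase fell in both comparisons (-0.66 ± 0.17 and -0.58 ± 0.17). Srprb of the signal recognition receptor fell in stable tumours (-0.32 ± 0.11). That is 4.35% and 8.70% of the 23, beside 5.8% and 8.16% of all genes lower. Of 12 genes of ATF6 processing and the CREB3 family, 11 were tested. Nfyb, a subunit of the NFY factor that binds CCAAT, fell by 0.49 ± 0.11 and 0.43 ± 0.11. This 1 gene is 9.09% of the 11 in each comparison, beside the same 5.8% and 8.16% of all genes. None of these named genes was called without vehicle 2, 6 and 7. With counts summed per title number, Dnajc1 and Nfyb were still called in relapse (edgeR adjusted p = 0.026 and 0.046), and Spcs1 (0.058 and 0.1), Txndc12 (0.22), Srprb (0.22) and, in stable tumours, Nfyb (0.099) were not.

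Cytosolic heat shock genes, which belong to a separate response to misfolded protein, also fell in part: 3 of 14 in relapse (21.4%, beside 5.8% of all genes) and 6 of 14 in stable tumours (42.9%, beside 8.16%), 0 rising. Hspa1a fell in relapse (log2 fold change of -1.35 ± 0.31, edgeR adjusted p = 0.0096) and in stable tumours (-1.74 ± 0.31, edgeR adjusted p = 0.0019), as did Hspa1b (-1.35 ± 0.32 and -1.57 ± 0.32). These 2 HSP70 genes are near-identical copies, so how reads were shared between them is uncertain. Dnajb4, an HSP40 cochaperone, fell in relapse by 0.97 ± 0.29 (edgeR adjusted p = 0.036) and in stable tumours (log2 fold change of -1.14, edgeR adjusted p = 0.016), and stood at -0.04 and -0.19 without vehicle 2, 6 and 7. Bag3, the HSP70 partner in autophagy, fell in stable tumours by 1.21 ± 0.22 (edgeR adjusted p = 0.0019). Without vehicle 2, 6 and 7, 4 of 14 fell in stable tumours (Hspa1a at -1.08, Hspa1b at -0.89, Bag3 at -0.77 and, named after its values were seen, Dnajb1 at -0.64) and 0 of 14 in relapse. Of all genes, 2.44% fell in stable tumours and 1.32% in relapse in that fit. With counts summed per title number, Hspa1a, Hspa1b and Dnajb4 fell in both comparisons and Bag3 in stable tumours.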

How the data were processed

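The table the authors deposited holds raw counts for each gene in 21 tumours and a gene length. Libraries were stranded and made from polyadenylated RNA, per the labels, and the submitters' processing notes name Picard 2.9.2, SAMtools 1.3.1, STAR 2.5.2a, edgeR and the build mm10. For annotation and strand setting, nothing was given in the sources used here. In 10202 of 24028 rows a cell with the row number came first, and values were therefore taken from the last 25 cells of a row. Counts were fitted for the 3 groups together with edgeR 4.0.16 in R 4.3.3 (filterByExpr, TMM, quasi-likelihood test), adjusted by Benjamini-Hochberg over 15792 genes and called at 0.05, after checking on simulated data. CPM use TMM library sizes, and values per kilobase use the table's gene length. SE is the log2 fold change over the square root of F. Alternatives used DESeq2 1.42.0 and limma 3.58.1. Promoters and coordinates came from RefSeq (GRCm38.p6). Named genes are every member and, from each list, up to 3 called genes of lowest p in each comparison, unless said otherwise; 1 called gene of these lists is not reported here. Members, roles, pathway lists and marker lists were chosen with earlier results of these data known, and alternatives that leave out several tumours follow from those results.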

Additional observations from a re-analysis of the deposited data

Results flagged for a closer look

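The gap test (Dixon's, 95% limit 0.568 of the range) was applied to 114 sets of 7 values, 38 genes in 3 groups. In 18 sets, 1 tumour lay farther from the rest of its group than this allows. For normally distributed values chance alone flags about 1 in 20 sets. CPM were not put on a log scale and the genes share the same tumours, so that rate is only a rough guide here.

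Stable 1 accounted for 8, each the highest of its group. It had 138.5 CPM of Trib3, with the next tumour at 8.30, and 83.6 of Creld2, with the next at 30.5. Atf4 stood at 403.8 (next 193.3), Mthfd2 at 19.2 (next 6.13) and Phgdh at 9.34 (next 3.17). Asns was at 61.2 (next 28.8), Psat1 at 191 (next 97.8) and Ppp1r15a at 52.0 (next 38.2).

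In relapse tumours, Slc7a1 was at 404.7 CPM in relapse 2 (next 67.4) and Ern1 at 170.7 in relapse 7 (next 67.2). Relapse 2 also had the highest Sel1l, 397.4 (next 286), and the lowest Dnajc3, 135.4 (next 190). Chac1 reached 9.41 CPM in stable 2 (next 2.82).

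In vehicle tumours, vehicle 3 had 55.3 CPM of Psph (next 24.02) and 115.8 of Manf (next 96.3). Vehicle 7 had 21.9 of Atf5 (next 12.6) and 1103 of Calr (next 895). Vehicle 4 had 167.2 of Slc7a5 (next 78.6).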

How the results depend on the processing

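The values below set the counts with all 21 tumours, 1772 genes and 8 members called in relapse and 2378 and 13 in stable tumours, beside each alternative that moved them by over 1.5 times. Without vehicle 2, 6 and 7 the counts were 527 genes and 1 member in relapse and 847 and 1 in stable tumours. With counts summed per title number they were 955 and 4, and 592 and 3, and with both choices together 180 and 0, and 172 and 1. Leaving out vehicle 2, 6 and 7 and stable 1 gave 5 members in relapse. Fitting only the 2 groups compared gave 964 genes and 3 members in stable tumours. DESeq2's Wald test called 6 genes between relapse and stable, where edgeR called 0. Both summing with tumours left out and leaving out stable 1 with vehicle 2, 6 and 7 were chosen after seeing the data.

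With the replicate block the counts were 987 genes and 5 members in relapse, and 1251 and 7 in stable tumours. The replicate numbers did not pair the tumours: same-numbered tumours correlated between -0.326 and 0.463 in their deviations from the group means, with at most 2 of 7 pairs over 0.1.

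Leaving out each tumour in turn gave 1156 to 2671 genes and 4 to 12 members in relapse, 1470 to 3272 genes and 6 to 14 members in stable tumours, and 0 to 4 genes and 0 members between relapse and stable. Relapse members numbered 4 without vehicle 2, 6 or 7 or relapse 6, 5 without relapse 1 or 3, and 12 without stable 1; stable members numbered 7, 7 and 6 without vehicle 2, 6 and 7, and 8 without stable 2 or 4. Genes called in relapse were 1160 and 1156 without vehicle 2 or 6 and 2671 without stable 1, and in stable tumours 1496 and 1470 without vehicle 2 or 6. Between relapse and stable, 4 genes were called without relapse 4 and 1 without stable 5.

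Upper quartile scaling moved the median of all genes to 0.04 in both comparisons with vehicle and gave 953 genes higher and 673 lower in relapse, against 856 and 916, and 1294 and 1032 in stable tumours, against 1090 and 1288. Over all alternatives no called member changed direction. In relapse 62 single values of called members lost their call and 22 of others gained one, and in stable tumours 123 and 7. Depth limits the lowest members most, Chac1 and Phgdh at a few CPM.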
